A study of Danio rerio with 12 samples.

Results

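Cytochrome P450 genes encode heme enzymes that insert oxygen into sterols, steroid hormones, fatty acids, retinoids, vitamin D and foreign chemicals. Their family numbers follow sequence likeness, and in fish several families, the second above all, have grown into tandem rows of related genes. In the eye, P450 enzymes act on retinoids in the retinal pigment epithelium and on fatty acids and sterols in the retina, while the cornea and other surface epithelia can carry the drug-metabolising families known best from liver and gut. The genes described here are every gene of the deposited expression table whose symbol starts with cyp and a number, leaving out the retinoic acid hydroxylases cyp26a1, cyp26b1 and cyp26c1. This gave 79 of 37055 genes, in 16 families.

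Polyadenylated RNA was measured in eyeballs of 6 wild-type zebrafish and 6 lrpap1 mutant zebrafish at 3 months of age, to ask what a loss of lrpap1 does to the eye. lrpap1 encodes a chaperone of the low-density lipoprotein receptor family. The mutants belonged to 1 stable line homozygous for a CRISPR/Cas9 frameshift mutation, so all 6 carried the same allele. Both genotypes were otherwise untreated, and each sample was the pair of eyeballs of 1 fish.

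Total counts per sample ran from 7988538 to 9829112 in wild-type and from 7996647 to 9780310 in mutant samples. Values by sample are given as CPM (read counts scaled to library size by TMM), on which 1 count was worth 0.0973 to 0.132 CPM, and levels are compared between genes only as the deposited TPM (a transcript measure that corrects for gene length and has the same total in each sample). Transcripts of the targeted gene, lrpap1, lay between 22.0 and 31.3 CPM in wild-type and between 16.4 and 22.3 CPM in mutant eyes (log2 fold change -0.52, adjusted p = 0.0108 by edgeR). The lens crystallin genes took 0.0710% of all counts in wild-type sample 3 against 5.34% to 9.78% in the other 11 samples, so that sample held next to no lens RNA. The marker lists of rods, cones, pigment epithelium and surface epithelium each summed to at least 1560 TPM in all 12 samples. Over all genes, mutant samples 1, 2 and 3 were more alike (chi-square per degree of freedom 8.05 to 10.8), as were mutant samples 4, 5 and 6 (7.02 to 9.70), than samples across these sets (11.04 to 21.1). Summed endothelium markers were 64.7 to 88.0 TPM in mutants 1 to 3, 23.96 to 39.2 TPM in mutants 4 to 6 and 20.3 to 97.4 TPM in wild types, and summed macrophage and microglia markers were 116 to 132, 71.1 to 97.6 and 55.7 to 84.1 TPM. In the same order, skeletal muscle markers were 615 to 1056, 438 to 520 and 310 to 1035 TPM. Rod markers were 23586 to 24624, 25517 to 34405 and 20845 to 36153 TPM. Cone markers were 12950.5 to 14872.7, 15791.4 to 16761.5 and 12273.1 to 20592.3 TPM. The Muller glia, hepatocyte, lens, pigment epithelium and surface epithelium lists overlapped between the mutant sets. The labels name no batch, so fits that leave out either set, chosen after seeing the data, are given where they change a result. Each then leaves 3 mutants. These are whole eyeballs, so fewer cells of a type and less RNA per cell cannot be told apart.

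P450 genes ranged from absent to well expressed in the eye. Of the 79, 45 had a mean above 1 TPM and 10 a mean above 10 TPM. A count in every sample was found for 48, and 5 genes of the second family (cyp2aa8, cyp2k22, cyp2x8, cyp2x9 and cyp2x10.2) had no count in any. All 79 together summed to between 272 and 455 TPM in wild-type eyes (median 319) and to between 275 and 516 TPM in mutant eyes (median 337), and the genotypes overlapped.

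The highest gene was cyp27c1 (GRCz11 chr6:9568149-9581946), which makes vitamin A2, the chromophore precursor that shifts fish photoreceptors towards red light. Its level was 52.7 ± 13.7 TPM in wild-type and 73.0 ± 21.1 TPM in mutant eyes (mean ± SD, n = 6 each), and it alone made up 17.9% of the mean P450 total. Next came cyp8b3, a gene of the bile acid sterol hydroxylase family, with 43.7 ± 18.8 TPM in wild-type and 19.6 ± 31.8 TPM in mutant eyes. The sterol demethylase cyp51, which every cell that makes cholesterol needs, followed at 26.2 ± 8.76 TPM and 27.3 ± 4.36 TPM. The fish drug-metabolising gene cyp3c1 stood at 21.6 ± 3.75 TPM and 28.7 ± 6.98 TPM, and the aryl hydrocarbon receptor target cyp1a at 17.4 ± 6.24 TPM and 13.5 ± 6.18 TPM. The remaining genes above 10 TPM were cyp2ad3, cyp2p9, cyp8b2, cyp20a1 and cyp2p7, with means over all 12 samples of 13.5, 13.0, 12.4, 11.2 and 10.04 TPM. The ranges of cyp27c1 and cyp8b3 over samples overlapped, the means of cyp51 and cyp3c1 differed by less than the SD of cyp51 in wild-type eyes, and these last 5 genes had overlapping ranges too.

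**Figure D1:**
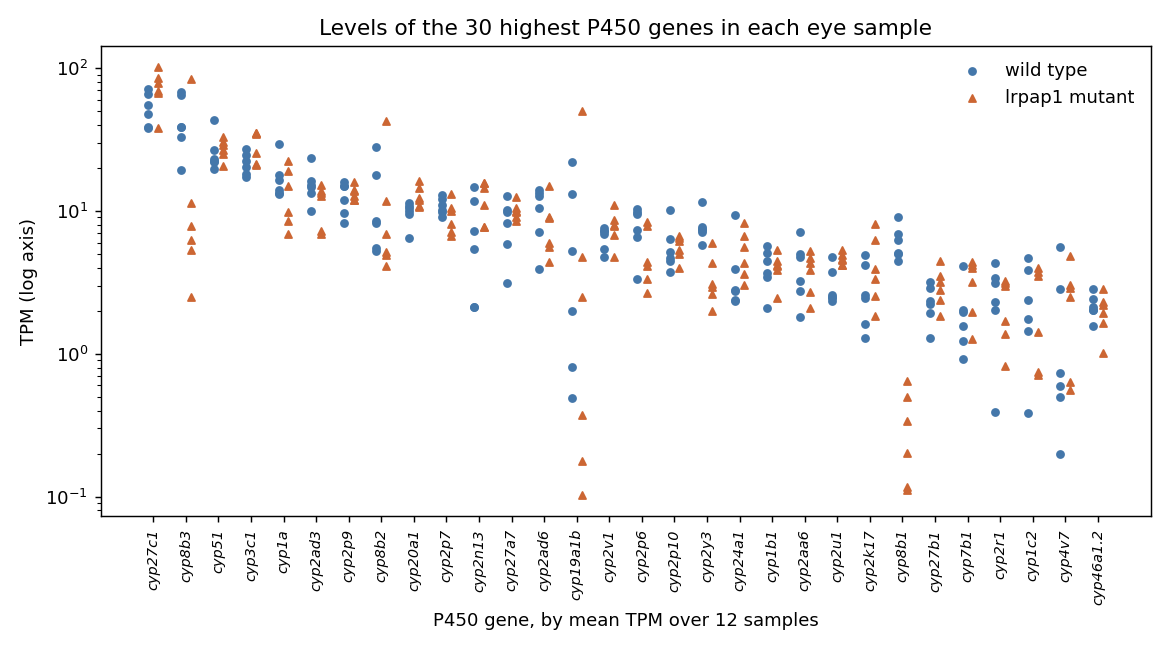
The 30 P450 genes with the highest mean are ordered along the horizontal axis, and each point is the TPM of 1 sample on a log axis (circles wild type, triangles lrpap1 mutant, 6 each). Points of the genotypes lie side by side for most genes, whereas cyp8b1 splits into separate bands, cyp19a1b spreads widely in both genotypes, and cyp8b2 and cyp8b3 each have 1 mutant point far above the other 5.

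Counts were high enough for 41 of the 79 genes to be tested between genotypes, and the other 38 never had more than 59 counts in a sample. Of the 41, 4 changed at an adjusted p under 0.05 (9.76%), against 11.2% of the 18984 genes tested in the whole table. cyp7a1b and cyp2aa11 rose in the mutants, against a background of 6.92% of genes higher, and cyp8b1 and cyp2y3 fell, against 4.27% lower. The share of P450 genes that changed was thus near the background. Past a 2-fold change stood 3 of the 4, cyp8b1, cyp2y3 and cyp7a1b, where the background was 4.55% of genes (3.68% higher and 0.874% lower). The same 3 were the genes whose wild-type and mutant samples did not overlap in CPM, and 5.83% of all tested genes did not overlap (3.69% with the mutants higher and 2.14% lower). At an unadjusted p under 0.05 stood 7 of the 41, against 27.2% of all tested genes. The median log2 fold change was -0.04 over the 41 P450 genes and -0.02 over all tested genes, with 19 P450 values above 0 (46.3%, against 47.4% of all tested genes) and 22 below. Leaving out mutants 1 to 3, 3 of 47 tested P450 genes changed, all lower, where 451 genes changed in the whole table. Leaving out mutants 4 to 6, 4 of 49 did, 2 in each direction, where 2207 genes changed in the whole table. For these fits the number of genes tested in the whole table is not given here. The P450 shares and directions were therefore not compared with a background. The median size of the change without its sign was 0.36 on the log2 scale for the P450 genes and 0.22 for all tested genes, and their median standard errors were 0.30 and 0.17.

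**Figure D2:**
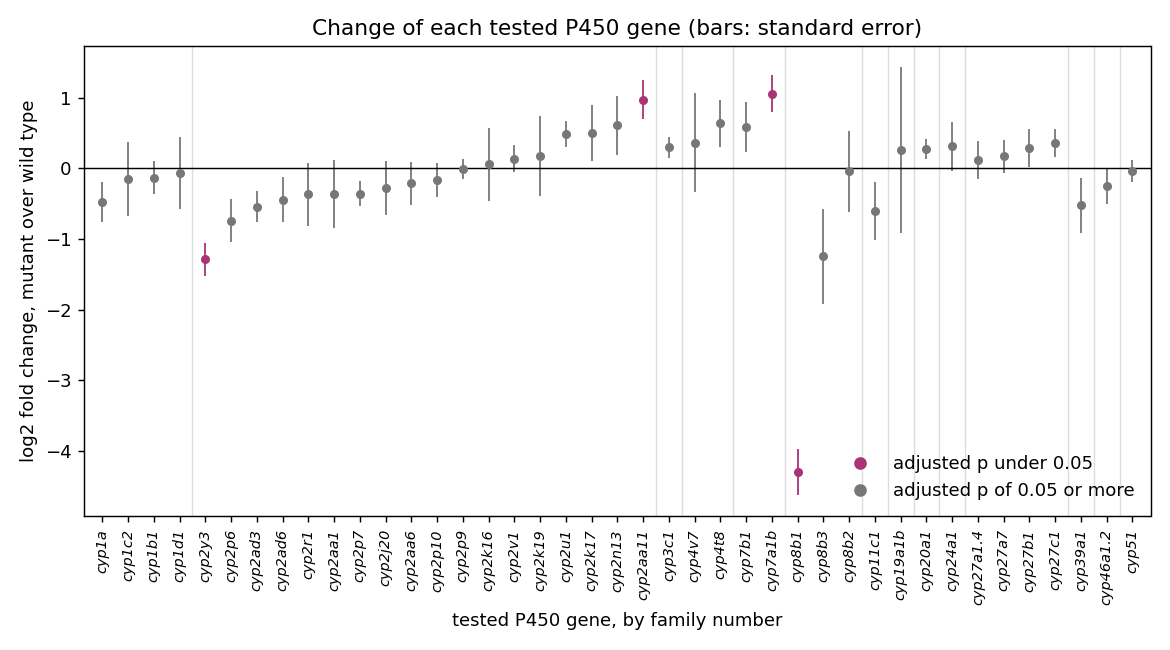
Each point is the log2 fold change of 1 of the 41 tested P450 genes, mutant over wild type, with its standard error as a bar, ordered by family number and separated by grey lines between families. The 4 coloured points have an adjusted p under 0.05, and cyp8b1 at -4.30 lies apart from the others, which run from -1.29 to 1.06.

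Among the sterol and bile acid genes, the change in cyp8b1 (chr2:3435888-3437862) was the largest of all tested P450 genes. This ranking leaves out cyp19a1a, which was below the filter on low counts. In fits that keep low genes, the log2 fold change of cyp19a1a was -4.30 (edgeR without the filter) and -4.64 (DESeq2). Those of cyp8b1 were -4.29 and -4.34. In mammals CYP8B1 is the sterol hydroxylase that sets the balance of cholic acid to other bile acids. The gene had 47, 48, 48, 89, 68 and 67 counts in wild-type samples 1 to 6, and 2, 5, 6, 1, 1 and 3 counts in mutant samples 1 to 6. Wild-type eyes thus ranged from 5.36 to 9.26 CPM with a median of 6.56 CPM. Mutant eyes ranged from 0.114 to 0.650 CPM with a median of 0.276 CPM. All 6 mutants lay far below all 6 wild types, and the highest was 1.73 times the lowest among wild types and 5.71 times among mutants, where counts were few. The log2 fold change was -4.30 (SE 0.33, adjusted p = 6.05e-06 by edgeR). Summed over samples and set against library size, 367 wild-type and 18 mutant counts gave a level 20.5-fold higher in wild type, with an exact 95% interval of 12.8 to 34.9 that covers counting error only. It passed without mutants 1 to 3 (-5.00, adjusted p = 0.000439) and without mutants 4 to 6 (-3.84, adjusted p = 0.000390). By mean level it was number 18 of the 79 genes in wild-type eyes, at 6.13 TPM, and number 54 in mutant eyes, at 0.319 TPM.

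The fall in cyp8b1 was not shared evenly by its 2 tandem neighbours. cyp8b2 (chr2:3452590-3454556) and cyp8b3 (chr2:3468069-3470019) follow it along the chromosome on the other strand and bear the names of the same enzyme family. For cyp8b3, wild-type eyes ranged from 24.2 to 68.2 CPM (median 41.3 CPM) and mutant eyes from 2.50 to 84.1 CPM (median 6.87 CPM). The highest of all 12 values was mutant sample 3, and the next mutant reached 11.7 CPM, below every wild type. With all samples the log2 fold change was -1.25 (SE 0.67, adjusted p = 0.250 by edgeR), and it did not pass. It was -3.26 (adjusted p = 0.00247) without mutants 1 to 3 and -0.42 (adjusted p = 0.709) without mutants 4 to 6, sets chosen after seeing the data. Without mutant sample 3 alone it was -2.77 (adjusted p = 0.000612), and with limma's sample quality weights, which keep that sample, -2.21 (adjusted p = 0.0131, where limma called 13.9% of all genes).

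For cyp8b2, wild-type eyes ranged from 5.81 to 28.5 CPM (median 9.72 CPM) and mutant eyes from 4.52 to 42.7 CPM (median 5.97 CPM). Mutant sample 3 was again the highest, and the genotypes overlapped widely (log2 fold change -0.04, SE 0.57, adjusted p = 0.976). Without that sample the log2 fold change was -0.94, and without mutants 4 to 6 it was 0.63 (adjusted p = 0.544). Of the summed TPM of the 3 genes, cyp8b1 took 6.88% to 15.3% in wild-type samples and 0.505% to 3.73% in mutant samples. Mutant sample 3 thus carried 127 TPM of the 3 genes together, more than any other eye, yet only 0.505% of it was cyp8b1. How reads shared between copies were counted is not given in the sources used here, so this split is uncertain.

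Of the 5 tested genes on either side of the row, 1 changed, where 11.2% of all tested genes changed and 4.27% were lower. This was iba57, an iron-sulfur cluster assembly gene, which fell with a log2 fold change of -0.47 (adjusted p = 0.0346). It did not overlap between genotypes, which held for 2.14% of all tested genes with the mutants lower. The call of iba57 was lost in 8 of the 12 fits that leave out 1 sample (adjusted p up to 0.0921). On the same side jmjd4 had -0.62 (adjusted p = 0.137). On the other side cx47.1, a gap junction gene, had 0.02 (adjusted p = 0.949), zgc:92744 -0.17 (adjusted p = 0.247) and fuz -0.10 (adjusted p = 0.752). The predicted gene LOC101887081 overlaps cyp8b1 on the opposite strand and had 3 to 30 counts in wild-type and 3 to 19 in mutant samples. Whether counting used strand is not given in the sources used here, so reads of the overlapping stretch cannot be told apart.

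cyp7a1, the first and rate-limiting enzyme of bile acid synthesis from cholesterol in mammals, fell short of the filter on low counts. It had 7, 2, 31, 47, 30 and 30 counts in wild-type samples 1 to 6, and 2, 5, 59, 7, 2 and 4 counts in mutant samples 1 to 6. Here too mutant sample 3 was the highest of all eyes, and wild-type samples 3 to 6 stood well above the other 5 mutants. Of 9 hepatocyte markers, 2 had enough counts and did not pass, ambp at a log2 fold change of -0.17 (adjusted p = 0.491) and apoa2 at 0.46 (adjusted p = 0.610). The liver plasma protein genes fga, fgb and serpina1 never exceeded 3 counts, and fabp10a had 0 to 5 counts. The transferrin gene tfa had 1 to 26 counts in wild-type and 0 to 6 in mutant eyes (DESeq2 log2 fold change -1.67, adjusted p = 0.214). The summed TPM of the hepatocyte list was 88.9 to 156 in wild-type and 106 to 158 in mutant eyes, with mutant sample 3 at 129, and ambp alone averaged 120 TPM of it.

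**Figure D3:**
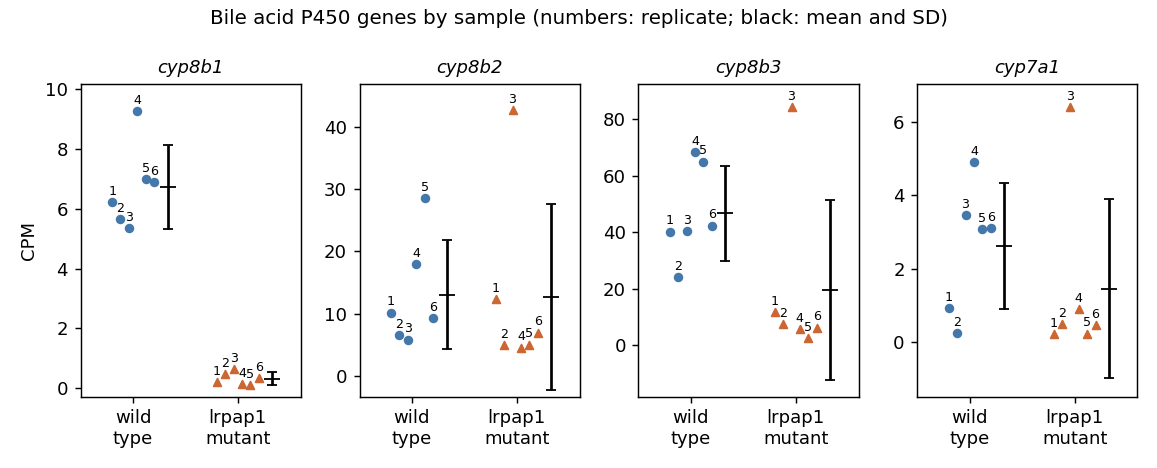
CPM of the 3 cyp8b genes and of cyp7a1 in each sample, with the replicate number beside each point and the mean and SD in black, on a separate linear axis for each gene. Mutant sample 3 is the highest point for cyp8b2, cyp8b3 and cyp7a1 at 42.7, 84.1 and 6.39 CPM, while for cyp8b1 it lies with the other mutants at 0.650 CPM.

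The other copy, cyp7a1b (chr7:58272112-58289811), rose. Wild-type eyes ranged from 1.13 to 2.25 CPM (median 1.83 CPM) and mutant eyes from 2.50 to 6.48 CPM (median 3.24 CPM). Every mutant was above every wild type, and mutant sample 6 was well above the rest. The log2 fold change was 1.06 (SE 0.26, adjusted p = 0.0199 by edgeR), with 11 to 57 counts behind each value. It passed without each of the 12 samples in turn, at log2 values of 0.84 to 1.17. It was 1.20 (adjusted p = 0.105) without mutants 1 to 3 and 0.93 (adjusted p = 0.0540) without mutants 4 to 6.

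The remaining tested sterol genes did not pass. cyp7b1, an oxysterol hydroxylase, had a log2 fold change of 0.59 (adjusted p = 0.305), and cyp39a1, which acts on a brain-derived oxysterol in mammals, -0.53 (adjusted p = 0.416). The cholesterol hydroxylase cyp46a1.2 was at -0.25 (adjusted p = 0.579). The sterol hydroxylase genes cyp27a7 and cyp27a1.4 were at 0.17 and 0.12 (adjusted p = 0.680 and 0.813). For cyp51, wild-type eyes ranged from 30.04 to 54.6 CPM (median 31.9 CPM) and mutant eyes from 27.6 to 41.4 CPM (median 33.8 CPM), with a log2 fold change of -0.04 (SE 0.15, adjusted p = 0.897). Of the 15 genes of the sterol and bile acid group, 10 were tested, with 1 risen and 1 fallen, against 6.92% of all tested genes higher and 4.27% lower.

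Family 2 held 39 of the 79 genes, of which 18 were tested. cyp2y3 (chr15:26021-32151), a fish member of the family, fell. Wild-type eyes ranged from 7.15 to 13.7 CPM (median 10.1 CPM) and mutant eyes from 2.44 to 7.04 CPM (median 3.49 CPM). The genotypes did not overlap in CPM, though mutant sample 6 came close to the lowest wild type, sample 3. In TPM they did overlap, with mutant sample 6 at 5.97 above wild-type sample 3 at 5.77. The log2 fold change was -1.29 (SE 0.24, adjusted p = 0.00437 by edgeR), and it passed without each of the 12 samples in turn. Without mutants 1 to 3 it was -0.96 (adjusted p = 0.0949), and without mutants 4 to 6, -1.67 (adjusted p = 0.00286).

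cyp2aa11 (chr23:42336089-42357873), of a fish branch of family 2, rose by less and on fewer counts. Wild-type eyes ranged from 1.29 to 1.96 CPM (median 1.68 CPM) and mutant eyes from 1.93 to 5.51 CPM (median 2.83 CPM). The lowest mutant lay just under the highest wild type, and mutant samples 1 and 3 were the highest. The log2 fold change was 0.97 (SE 0.27, adjusted p = 0.0362 by edgeR). The call was lost without any 1 of wild-type samples 1, 2, 3, 4 and 6 or mutant samples 1, 2 and 3, at adjusted p values of 0.0520 to 0.0867, and with limma (adjusted p = 0.0604). Without mutants 1 to 3 it was 0.45 (adjusted p = 0.464), and without mutants 4 to 6, 1.38 (adjusted p = 0.0109). The surface epithelium markers epcam and krt4 also rose (log2 fold changes 1.34 and 1.13, adjusted p = 0.00520 and 0.00836), 2 of 7 listed where 11.2% of all tested genes changed. The other 5 did not pass. Of these, agr1, cldne and krt92 had log2 fold changes of 0.87, 0.82 and 1.67. The markers highest in TPM, krt91 and krt5, were at -0.43 and -0.10. The summed TPM of that list was 7642 to 17028 in wild-type and 9617 to 18530 in mutant eyes. Of 6 macrophage and microglia markers, 5 rose and 1 fell, against the same 11.2%, with sums of 55.7 to 84.1 TPM in wild-type and 71.1 to 132 TPM in mutant eyes. The 1 that fell, aif1l, was the highest of the 6, with means of 42.8 TPM in wild-type and 38.6 TPM in mutant eyes. The 5 that rose had log2 fold changes of 0.83 to 1.64. Among the 12 fits that leave out 1 sample, the call was lost in 11 for aif1l, 9 for mpeg1.1, 7 for csf1ra and 1 for c1qb. The calls of c1qa and marco held in all 12. The part of these cells in the change of cyp2aa11 was not tested.

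**Figure D4:**
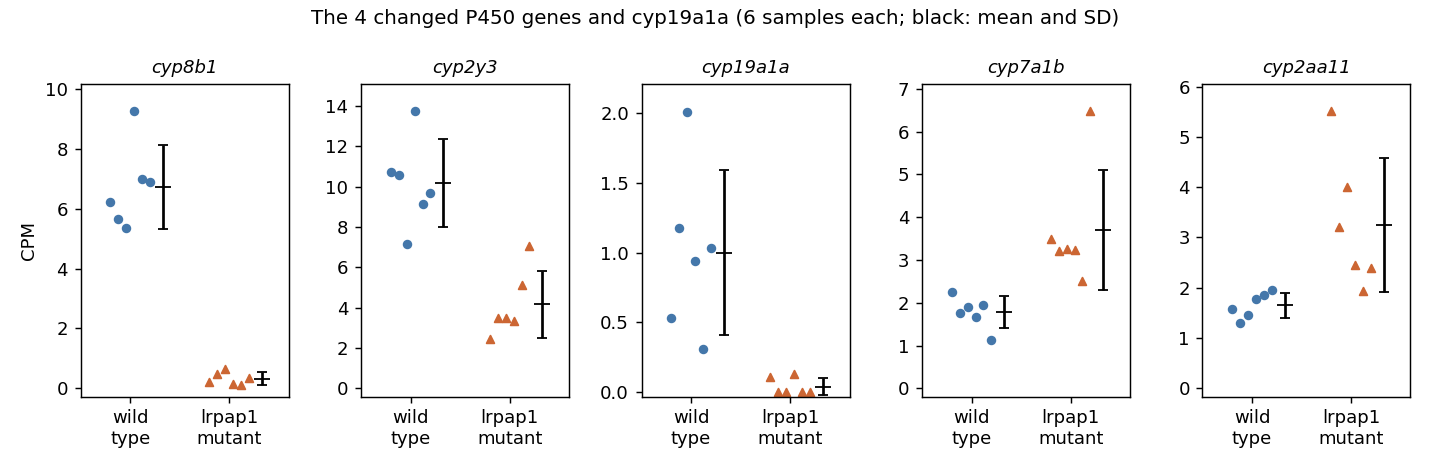
CPM in each sample of the 4 changed P450 genes and of cyp19a1a, which had too few counts for the main test, with the mean and SD in black and a separate linear axis for each gene. Wild-type and mutant points do not overlap for any but cyp2aa11, where the lowest mutant at 1.93 CPM lies below the highest wild type at 1.96 CPM.

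Tandem copies were expressed unevenly. Grouping P450 genes less than 200000 bases apart gave 10 rows with 51 genes, of which 22 were tested, and 28 genes outside them, of which 19 were tested. The row on chr20:25515259-25616418 was the most evenly used, with 9 of its 11 genes tested and none changed. It holds cyp2n13, cyp2ad, cyp2v1, cyp2p and cyp2j20 genes, several of which are related to mammalian fatty acid epoxygenases, and its strongest member, cyp2ad3, made only 17.5% of its mean TPM. In that row, cyp2ad3 had 10.05 to 22.7 CPM in wild-type and 6.94 to 14.6 CPM in mutant eyes (log2 fold change -0.54, SE 0.22, adjusted p = 0.131). cyp2p6 had 4.47 to 14.8 and 3.41 to 10.6 CPM (log2 fold change -0.74, adjusted p = 0.133). Among the 12 fits that leave out 1 sample, it passed only without wild-type sample 3, the eye with next to no lens RNA (adjusted p = 0.0477). cyp2n13 had 1.87 to 12.8 and 6.71 to 13.7 CPM (log2 fold change 0.61, adjusted p = 0.371). In contrast, cyp3c1 made 96.2% of the 4-gene cyp3c row on chromosome 3, and the 4 cyp2x genes on chromosome 25 never exceeded 14 counts. Of the 10-gene cyp2aa and cyp2ae row on chromosome 23, 3 were tested. Reads can be shared between near-identical copies, and the counting program is not given in the sources used here, so the split within a row is uncertain.

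Outside the rows, cyp2u1, a fatty acid hydroxylase in mammals, had 3.01 to 5.85 CPM in wild-type and 5.11 to 6.61 CPM in mutant eyes (log2 fold change 0.48, SE 0.19, adjusted p = 0.109). Among the 12 fits that leave out 1 sample, it passed only without wild-type sample 5, at 0.63 (adjusted p = 0.0343).

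None of the 4 genes of family 1 changed. Their log2 values were -0.47 to -0.06, but all 4 were above 0 without mutants 4 to 6, from 0.0024 for cyp1a to 0.52 for cyp1c2. For cyp1a, the classic target of the aryl hydrocarbon receptor, wild-type eyes ranged from 18.3 to 39.6 CPM (median 22.9 CPM) and mutant eyes from 9.22 to 30.7 CPM (median 16.1 CPM). Mutant samples 4, 5 and 6 were below every wild type, and the other 3 mutants lay within the wild-type range (log2 fold change -0.47, SE 0.28, adjusted p = 0.298). In the fit without mutants 1 to 3, a set chosen after seeing the data, cyp1a was at -1.14 (adjusted p = 0.0493). cyp1b1, in which variants cause congenital glaucoma in humans, had 3.80 to 10.8 and 4.65 to 9.21 CPM (log2 fold change -0.13, adjusted p = 0.763). cyp1c2 and cyp1d1 had log2 fold changes of -0.15 and -0.06 (adjusted p = 0.886 and 0.954).

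Of 7 tested genes of the aryl hydrocarbon receptor pathway outside the P450 family, 2 changed, against 11.2% of all tested genes. nqo1, a quinone reductase known as a target of this receptor and of Nrf2, rose, with 13.1 to 18.9 CPM in wild-type and 22.8 to 35.1 CPM in mutant eyes (log2 fold change 0.94, SE 0.13, adjusted p = 0.000669). The receptor gene ahr1b rose by less, with 65.4 to 74.3 and 84.4 to 97.1 CPM (log2 fold change 0.32, adjusted p = 0.00641). Neither overlapped between genotypes, which held for 3.69% of all tested genes with the mutants higher. The feedback repressor gene tiparp had 0.44 (adjusted p = 0.0509), and the receptor gene ahr2, 0.01 (adjusted p = 0.986).

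These were among 44 genes listed as partners, regulators or neighbours in pathway of the P450 enzymes, of which 41 were in the table and 31 were tested. nqo1 and ahr1b were the 2 that rose, and none fell at an adjusted p under 0.05 by edgeR, where 11.2% of all tested genes changed and 6.92% were higher. The 7 tested electron donors and binding proteins, among them fdxr, the reductase that feeds electrons to mitochondrial P450 enzymes, did not pass. The 6 heme enzymes, such as alas1 with a log2 fold change of 0.05 (adjusted p = 0.778), did not pass either, nor did the 7 tested nuclear receptors, of which the vitamin D receptor gene vdra came closest at 0.69 (adjusted p = 0.0721).

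The 4 genes of vitamin D and vitamin A metabolism did not pass. For cyp27c1, wild-type eyes ranged from 53.5 to 95.9 CPM (median 80.1 CPM) and mutant eyes from 51.8 to 136 CPM (median 103 CPM). Mutant sample 5 was the lowest of all 12 and 3 mutants were above every wild type (log2 fold change 0.37, SE 0.20, adjusted p = 0.252). Among the 12 fits that leave out 1 sample, it passed only without mutant sample 5, at 0.52 (adjusted p = 0.0493). Of 7 pigment epithelium markers 1 changed, against 11.2% of all tested genes, dct, with a log2 fold change of -0.57 (adjusted p = 0.0467). This call was lost in 9 of the 12 fits that leave out 1 sample (adjusted p up to 0.114). The list summed to 1560 to 3116 TPM in wild-type and 1994 to 2817 TPM in mutant eyes. Mutant sample 5 had the lowest sum of the mutants. Wild-type samples 3 and 1, the lowest wild types for cyp27c1 at 53.5 and 63.5 CPM, summed to 2435 and 1560 TPM. The part of these cells in the level of cyp27c1 was not tested. The vitamin D genes cyp2r1, cyp27b1 and cyp24a1, which make and then break down the active hormone, had log2 fold changes of -0.37, 0.29 and 0.31 (adjusted p = 0.639, 0.533 and 0.610).

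The steroid hormone genes were low or uneven. cyp11a1, cyp11a2, cyp17a1, cyp17a2 and cyp21a2, the enzymes of the first steps towards hormones, were not tested and stayed at 6 counts or fewer. cyp11c1, which makes cortisol and fish androgens, had 1.54 to 8.45 CPM in wild-type and 1.70 to 5.46 CPM in mutant eyes (log2 fold change -0.60, SE 0.41, adjusted p = 0.371).

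cyp19a1a (chr18:39620534-39636348), the ovarian aromatase of fish that makes estrogens, had 4, 10, 18, 9, 3 and 10 counts in wild-type samples 1 to 6, and 1, 0, 0, 1, 0 and 0 counts in mutant samples 1 to 6. No mutant reached the lowest wild type. It was below the filter on low counts, so the main test does not cover it. Summed and set against library size, 54 wild-type and 2 mutant counts gave a ratio of 27.1 with an exact 95% interval of 7.15 to 229, for counting error only. Both tests that keep low genes put it past the threshold: edgeR without the filter at a log2 fold change of -4.30 (adjusted p = 0.00303, background 8.30% of genes) and DESeq2 at -4.64 (adjusted p = 0.000184, background 14.0%). With so few mutant counts both fitted values depend on how the tool treats low counts. The gene was singled out after its values were seen.

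The brain aromatase cyp19a1b, found in radial glia of the fish brain and retina, spread the most of all tested P450 genes. Wild-type eyes ranged from 1.24 to 62.1 CPM (median 8.67 CPM) and mutant eyes from 0.258 to 117 CPM (median 3.33 CPM). The highest mutant value was 454 times the lowest. With a log2 fold change of 0.26 (SE 1.17, adjusted p = 0.917) the data hold no usable estimate of a difference, and without mutant sample 5 the sign turned, to -2.35 (adjusted p = 0.166). At the other end, cyp2u1 differed by a factor of 1.29 between the highest and lowest mutant and cyp3c1 by 1.37 between the highest and lowest wild type.

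The tested genes of family 4, 2 of 4, did not pass, nor did those of the single-gene families apart from cyp21a2, which was not tested. cyp4v7, a fish counterpart of the gene mutated in human Bietti crystalline dystrophy, was uneven in both genotypes, from 0.515 to 13.4 CPM in wild-type and from 1.38 to 12.5 CPM in mutant eyes (log2 fold change 0.36, SE 0.71, adjusted p = 0.787, and -0.61 without mutants 4 to 6). The other counterpart, cyp4v8, had 26 and 21 counts in wild-type samples 3 and 4 and at most 5 in every other eye, and it was not tested. cyp4t8 had a log2 fold change of 0.64 (adjusted p = 0.235). For cyp20a1, whose substrate is unknown, wild-type eyes ranged from 7.66 to 12.1 CPM (median 10.9 CPM) and mutant eyes from 10.6 to 15.9 CPM (median 11.8 CPM), with a log2 fold change of 0.27 (SE 0.14, adjusted p = 0.233). cyp3c1, the 1 tested gene of family 3, had 19.1 to 26.2 and 20.4 to 34.6 CPM (log2 fold change 0.30, SE 0.15, adjusted p = 0.206), and mutant samples 1, 2 and 3 were above every wild type. Without mutants 4 to 6 the log2 fold change of cyp3c1 was 0.59 (adjusted p = 0.0111), and without mutants 1 to 3, -0.03 (adjusted p = 0.938). These sets were chosen after seeing the data, so neither fit is a test of genotype in its own right.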

How the data were processed

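The authors sequenced polyA-selected RNA and aligned reads to GRCz11 with HISAT2 2.1.0, per the labels; the counting program, its strand setting and multi-mapping rule are not given in the sources used here. The deposited table holds whole-number counts per gene, used for every test, and TPM per gene as the authors computed it, used for levels. Each genotype has 6 samples, each 1 fish. Genes passing filterByExpr were tested with edgeR 4.0.16 (quasi-likelihood, TMM scaling, genotype as the only term, R 4.3.3), and p-values were adjusted by Benjamini-Hochberg over all 18984 genes. "Changed", "rose" and "fell" mean an adjusted p under 0.05. A set of alternatives was also run: DESeq2 1.42.0 (the authors' tool), limma 3.58.1 with sample quality weights, other scalings and filters, the replicate number as a block, and leaving out each sample; leaving out mutant samples 1 to 3 or 4 to 6 was added after seeing the data. The test was tried on simulated counts. All samples of a genotype differed by more than sampling noise, so all were counted as separate. Ratios of summed counts carry exact 95% intervals for counting error only.

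The P450 genes and all lists were chosen with earlier results of these data known. Values by sample are given for genes with an adjusted p under 0.05, the 10 genes with the highest mean TPM, and genes with a known role; the others are counted by family. por, cyp1c1, fdx2, hmox1b and mfap4.1 were not analysed here.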

Additional observations from a re-analysis of the deposited data

Results flagged for a closer look

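In 8 of 82 sets of 6 values (41 tested genes in 2 genotypes), 1 sample stood far from the other 5 by Dixon's criterion. Independent normal values would give about 1 in 20, or 4.1 sets. CPM values need not be normal, and cyp8b2 and cyp8b3 were flagged for the same sample, so an excess over chance was not tested. Mutant sample 3 reached 84.1 CPM for cyp8b3, with the next mutant at 11.7, and 42.7 CPM for cyp8b2, with the next at 12.3. For cyp19a1b, mutant sample 5 had 117 CPM and the next mutant 10.5. Mutant sample 6 had 6.48 CPM for cyp7a1b, with the next at 3.50.

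Among wild types, sample 4 had 54.6 CPM for cyp51, with the next at 33.3. Wild-type sample 5 stood apart for cyp24a1 at 10.2 CPM (next 5.29) and for cyp2k19 at 4.31 CPM (next 1.46). Wild-type sample 2 had 4.70 CPM for cyp1d1, with the next at 1.96.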

How the results depend on the processing

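cyp8b1 passed in every alternative that could test it, cyp2y3 in all but the fit without mutants 1 to 3, and cyp7a1b in all but the replicate block and the fits without mutants 1 to 3 or 4 to 6. The fits without mutants 1 to 3 or 4 to 6 were chosen after seeing the data and leave 3 mutants. The replicate block was planned and keeps all samples. cyp8b1 was removed by a filter asking for 10 counts in each sample. The labels do not say that replicate numbers pair the samples. Same-numbered samples correlated at -0.27 to 0.09 over 6 pairs, and 1 of 12 samples correlated best with its own number. Whether same-numbered samples were handled together was not tested. With the replicate block, 2 P450 genes changed (cyp8b1 and cyp2y3), with 1202 genes in all, and cyp7a1b and cyp2aa11 had adjusted p values of 0.0989 and 0.125. Over all genes, DESeq2 called 3355, with 1525 past the fold threshold, and the filter of 10 counts left 464 past it. Without mutants 1 to 3, 451 genes changed, 308 of them past the fold threshold. DESeq2 and limma each called 4 partner genes, where they called 14.0% and 13.9% of all genes they tested. The fit without mutant sample 5 also called 4, and its share over all genes is not given here. Without each sample in turn, 3 to 5 P450 genes changed, 2 to 4 of them past the fold threshold, with 2 to 4 partner genes and 1437 to 2720 genes in all.

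No gene passed the test in a fit that turned its sign. cyp2p9 went to 0.013 (TMM without crystallins), 0.029 (filter of 10 counts), 0.043 (library size only), 0.0065 (no filter) and 0.0074 (block), cyp8b2 to 0.0043 (filter of 10 counts) and 0.0069 (library size only), cyp1d1 to 0.0035 (library size only) and 0.16 (block), cyp51 to 0.010 (library size only), cyp2p10 to 0.013 (limma) and cyp19a1b to -1.15 (limma) and -0.92 (block). Without mutants 1 to 3, cyp2k19 went to -0.088, cyp2p9 to 0.070, cyp2v1 to -0.11 and cyp3c1 to -0.027. Without mutants 4 to 6, cyp19a1b went to -2.21, cyp1a to 0.0024, cyp1b1 to 0.0087, cyp1c2 to 0.52, cyp1d1 to 0.025, cyp2aa1 to 0.0075, cyp2k16 to -0.14, cyp46a1.2 to 0.050, cyp4v7 to -0.61, cyp51 to 0.026 and cyp8b2 to 0.63. Leaving out 1 sample gave log2 ranges of -2.35 to 1.12 for cyp19a1b, -0.94 to 0.38 for cyp8b2, -0.25 to 0.54 for cyp1d1, -0.36 to 0.11 for cyp1c2, -0.17 to 0.46 for cyp2k16, -0.031 to 0.97 for cyp2k19, -0.25 to 0.059 for cyp2p10, -0.060 to 0.067 for cyp2p9 and -0.079 to 0.12 for cyp51. The cause was not tested. The standard error of the log2 fold change was under 0.5 for 33 of the 41 tested P450 genes, and the widest was 1.17 for cyp19a1b.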
